A study of Mus musculus with 45 samples.

Results

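The genes of the mitochondrial ribosome were read in fetal liver cells of mice that lose 1 copy of a cytosolic ribosomal protein gene in their blood cells. Members were taken by symbol, as every gene whose name is Mrpl or Mrps followed by a number. The rule found 78 of the 13449 genes of the deposited table, 49 named for the large subunit (Mrpl) and 29 for the small subunit (Mrps). All 78 were found in the RefSeq annotation of the mouse build GRCm38.p6, on 17 chromosomes. All 78 also passed the filter on low values, a mean of at least 10 normalized counts, in every comparison. A normalized count is the reads of a gene divided by the size factor of its library.

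Mitochondria keep their own ribosomes, which translate the few proteins encoded in mitochondrial DNA, all of them parts of the respiratory chain or the ATP synthase. The RNA of these ribosomes comes from mitochondrial DNA, while every protein of them is encoded in the nucleus, translated by cytosolic ribosomes and imported. Cells that make red blood cells need mitochondria for heme and iron-sulfur clusters, and they discard them at the last steps of maturation. Some members carry the name of a bacterial ribosomal protein and others are found in mitochondria only. The symbol and the place in the particle do not always match. In solved structures Mrps18a and Mrps30 sit in the large subunit, and Mrps36 is a subunit of the α-ketoglutarate dehydrogenase complex.

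Livers were taken from E15.5 fetuses, whose mothers carried VavCre and whose fathers carried the floxed allele of Rpl5, or of Rps19, on both chromosomes. Rpl5 and Rps19 encode proteins of the large and small cytosolic subunits. Homogenates were held in emetine, which freezes ribosomes on their mRNA. Magnetic beads then isolated cells carrying Kit, a receptor of stem and progenitor cells, and from the cells left over those carrying Ter119, a surface marker of maturing red cells.

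The 4 genotypes were Rpl5flox/+, VavCre Rpl5flox/+, Rps19flox/+ and VavCre Rps19flox/+, each as Kit+ and as Ter119+ cells and each as a cytoplasm and a polysome fraction of a sucrose gradient. All fetuses carried 1 floxed allele, and the floxed fetuses without Cre served as controls. No group carried VavCre without a floxed allele, so an effect of the Cre cannot be told apart from loss of the gene. The Vav promoter drives Cre in blood cells, which leaves hepatocytes and stroma with both copies. Cells of several fetuses were pooled by genotype before lysis, so each library is a pool and p-values measure the spread between pools. Of the 16 groups 14 held 3 libraries, VavCre Rpl5flox/+ Kit+ polysomes had 1, and Rpl5flox/+ Ter119+ polysomes had 2.

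The 45 libraries differed in depth. Cytoplasm libraries held 22.9 to 70.1 M (mega) reads in Kit+ cells and 45.0 to 123 M reads in Ter119+ cells. Polysome libraries held 1.01 to 37.6 M reads in Kit+ cells and 1.02 to 39.8 M reads in Ter119+ cells, and 4 of them held under 2 M reads. No member was without reads in any cytoplasm library, whereas 23 members were without reads in replicate 3 of VavCre Rpl5flox/+ Ter119+ polysomes. Lars2, a mitochondrial aminoacyl-tRNA synthetase gene that is no member, took 54.9% of the reads of 1 Kit+ polysome library.

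The targeted genes were read first. In Kit+ cytoplasm Rpl5 was at 531 ± 81.3 normalized counts (SD, n = 3) with VavCre Rpl5flox/+ and at 1046 ± 100.4 (SD, n = 3) in its controls, a log2 change of -0.97 (limma, adjusted p = 0.000287). Rps19 in VavCre Rps19flox/+ Kit+ cytoplasm fell by 0.48 on the log2 scale (limma, adjusted p = 0.00191), and in Ter119+ cytoplasm its change was -0.21 (limma, adjusted p = 0.302). In Ter119+ cytoplasm Rpl5 went against its label, at 499.9 ± 47.0 normalized counts in the libraries labelled VavCre Rpl5flox/+ and 368 ± 83.6 in the controls (SD, n = 3 each). Rpl5 also fell by 1.41 on the log2 scale from Kit+ to Ter119+ control cytoplasm, and by 0.59 with VavCre Rps19flox/+ in Kit+ cytoplasm (limma, adjusted p = 2.52e-08 and 0.00476). Cdkn1a, a target of p53 that arrests the cell cycle, ran the way of the label in these Ter119+ libraries, at 7918 normalized counts against 135 (log2 change 5.72, limma, adjusted p = 3.25e-12). It rose by 4.99 to 6.39 on the log2 scale in the other 3 VavCre cytoplasm groups. The libraries whose Rpl5 goes against the label are named by their label throughout. They also held 777 normalized counts of Kit against 45.4 in the controls. Markers of erythroid cells were lower there (0 of 9 called higher and 9 called lower). Their summed level was 2172340 to 3735290 normalized counts, against 7431100 to 18209600 in the controls.

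In the controls, maturation from Kit+ to Ter119+ cells went with lower mRNA of nearly the whole mitochondrial ribosome. In cytoplasm 65 of the 78 members were lower in Ter119+ than in Kit+ cells and 6 were higher, where 42.7% of all genes tested were called lower and 35.8% higher. The median log2 change of the members was -0.82, against -0.13 for all genes. Members took 0.726 to 0.835% of the reads of any Kit+ cytoplasm library and 0.0553 to 0.128% of the control Ter119+ libraries. Their summed level in normalized counts was 68529 to 73677 in control Kit+ and 38849 to 50270 in control Ter119+ libraries. The RNA of maturing red cells is dominated by a few erythroid genes, and in pooled cells a smaller share of cells and less RNA per cell cannot be told apart.

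Mrpl12 and Mrps6 stood at the head of this fall. Mrpl12, the mitochondrial form of the L7/L12 stalk protein that recruits translation factors, lies at chr11:120484637-120488754. Mrps6, a protein of the small subunit, lies at chr16:92058336-92112227. The 80 bases before each gene's annotated start are printed to show the stretch next to the start of the members that changed most. They are from RefSeq, GRCm38.p6, chr11:120484557-120484636 and chr16:92058256-92058335, plus strand. Neither stretch held any of the 4 motifs counted at the end, so no letters are in capitals.
Mrpl12: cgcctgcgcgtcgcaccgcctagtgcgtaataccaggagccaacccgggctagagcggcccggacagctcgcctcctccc
Mrps6: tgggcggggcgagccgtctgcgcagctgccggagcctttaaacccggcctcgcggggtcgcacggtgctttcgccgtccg

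In control Kit+ cytoplasm Mrpl12 was at 3506, 3649.9 and 3426 normalized counts in Rpl5flox/+ and at 3561, 3236 and 3573 in Rps19flox/+. In control Ter119+ cytoplasm it was at 536, 515 and 726 in Rpl5flox/+ and at 671, 649 and 1022 in Rps19flox/+. No Ter119+ library reached the level of any Kit+ library, and the log2 change was -2.36 (SE 0.12, limma, adjusted p = 1.82e-10, n = 6 against 6). Mrps6 had 383 to 452 normalized counts in the 6 Kit+ libraries and 36.8 to 113 in the 6 Ter119+ libraries, again without overlap. Its log2 change was -2.47 (SE 0.17, limma, adjusted p = 6.09e-09). Log2 changes are on the deposited scale, which compresses differences between low counts.

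Mrps35, a protein of the small subunit, fell by 2.21 on the log2 scale, from 774 ± 36.5 to 158 ± 33.1 normalized counts (SD, n = 6 each). Mrpl52 fell by 1.90 and Mrpl19 by 1.82. All 8 members listed at the polypeptide exit, where the growing chain leaves the large subunit, were lower, with a median log2 change of -1.17. Of the 6 members of the central protuberance, a part of the large subunit, 5 were lower, with a median of -0.54. Most members were lower in this comparison, as were 42.7% of all genes, so these counts do not set the 2 regions apart. The 6 members that were higher in Ter119+ cells were Mrpl53, Mrpl32, Mrps21, Mrpl4, Mrpl57 and Mrpl49, the last being named after its value was seen.

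Mrpl53, a large-subunit protein at chr6:83109108-83109932, had the largest rise. It was at 586 ± 51.2 normalized counts in Kit+ cells and at 934 ± 114 in Ter119+ cells (SD, n = 6 each), and the groups did not overlap. The log2 change was 0.66 (SE 0.09, limma, adjusted p = 1.57e-05). Control Ter119+ libraries also held more macrophage markers (10 of 10 called higher) and more hepatocyte markers (15 of 16), and the part of these cells in the members' values was not tested.

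**Figure D1:**
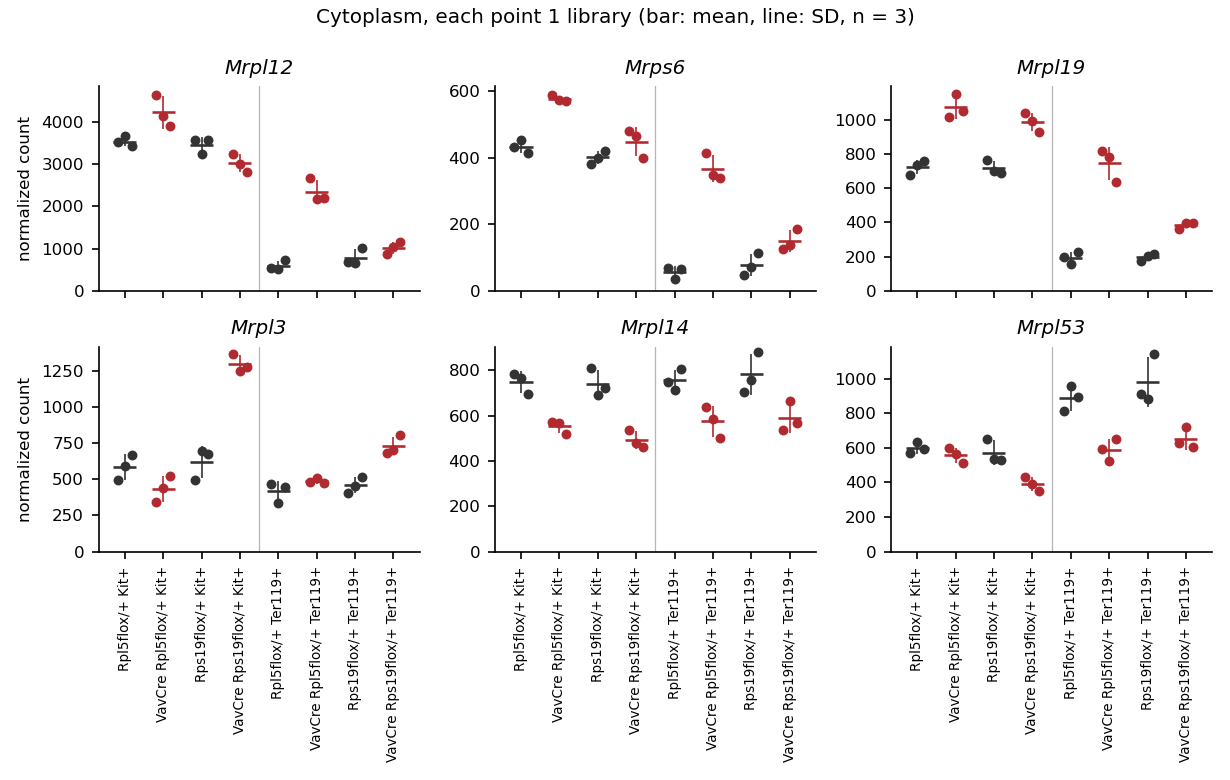
Normalized counts (y axis, from 0) of Mrpl12, Mrps6, Mrpl19, Mrpl3, Mrpl14 and Mrpl53 in every cytoplasm library, by genotype and cell type, black for floxed controls and red for VavCre, with the mean as a bar and the SD as a line (n = 3). Mrpl12, Mrps6 and Mrpl19 sit far lower in control Ter119+ than in control Kit+ libraries, and Mrpl14 is lower in each VavCre group than in its controls.

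Each VavCre genotype was then compared with floxed controls of its own line, cell type and fraction. The largest change of the members was in Ter119+ cytoplasm of the libraries labelled VavCre Rpl5flox/+. Of 78 members 56 were higher and 3 lower, where 35.3% of all genes were called higher and 30.1% lower. Over the members the median log2 change was 0.69 and 0.16 over all genes. The members' summed level was 61619 to 65358 normalized counts against 38849 to 44125 in the controls, below every Kit+ cytoplasm library. Of the 49 Mrpl genes 34 were higher and 3 lower, and of the 29 Mrps genes 22 were higher and 0 lower (limma, with 0 lower at an unadjusted p under 0.05).

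Mrps6 was at 413, 348 and 340.1 normalized counts in these libraries and at 67.4, 36.8 and 64.8 in their controls. The groups did not overlap, and the log2 change was 2.46 (SE 0.27, limma, adjusted p = 3.12e-06). Slc5a3, a gene that lies within the span of Mrps6, changed by 2.35 on the log2 scale (limma, adjusted p = 0.000286), from 0.836 to 36.9 normalized counts. Whether reads were counted by strand is not given in the sources used here, so the reads of these genes cannot be told apart with certainty.

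Mrpl12 was at 2668, 2166 and 2192 normalized counts against 536, 515 and 726, with no overlap and a log2 change of 1.97 (SE 0.19, limma, adjusted p = 1.21e-06). Mrps35 rose by 1.94, Mrpl19 by 1.88, Mrpl52 by 1.82 and Mrps27 by 1.81 on the log2 scale. Of the 8 members at the polypeptide exit 7 were higher, with a median of 1.20, and of the 6 of the central protuberance 3 were higher, with a median of 0.40. Most members were higher in this comparison, as were 35.3% of all genes. The 3 lower members were Mrpl53 (-0.58), Mrpl49 (-0.45) and Mrpl14 (-0.39). The call of Mrpl14 was lost without control replicate 3 or without the labelled replicate 3 (limma, adjusted p = 0.0609 and 0.101).

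Stem and progenitor markers were higher in the same libraries (7 of 7), at 3138 to 3248 normalized counts against 319 to 689 in the controls. Granulocyte and monocyte markers were higher in 8 of 10. The part of less mature cells in the members' change was not tested.

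The members that were lower in control Ter119+ than in control Kit+ cells were mostly those that were higher in the labelled libraries. To keep libraries apart, the step from Kit+ to Ter119+ was taken from the Rps19flox/+ controls. Of the 69 members with a lower value in Rps19flox/+ Ter119+ cells 65 had a higher value in the libraries labelled VavCre Rpl5flox/+ Ter119+, and of the 9 with a higher value 7 had a lower one. Most genes tested did the same, 5085 of the 5851 with a lower value and 4105 of the 5087 with a higher value. Across the 78 members Pearson's r was -0.937 and Spearman's rho -0.942, and across all 10939 genes tested they were -0.808 and -0.841. For the VavCre Rps19flox/+ change in Ter119+ cells and the step in the Rpl5flox/+ controls, r was -0.703 over the members and -0.345 over all genes. These correlations are across genes, which are not independent replicates.

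**Figure D2:**
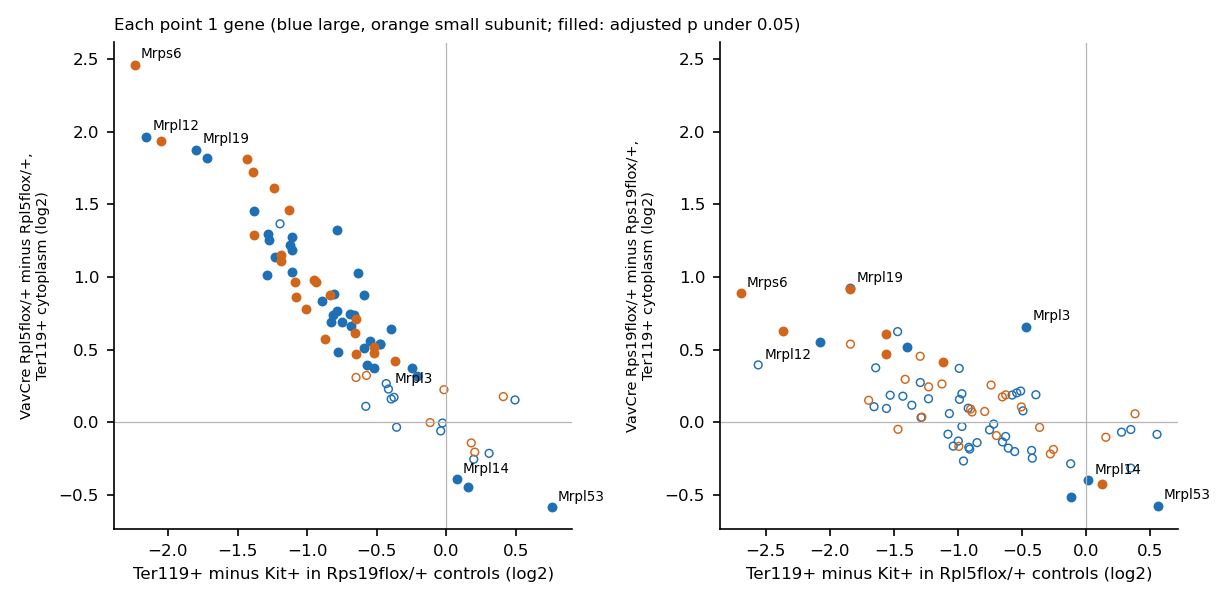
Each point is 1 member (blue large, orange small subunit, filled where the y value passed an adjusted p of 0.05), with the log2 difference between Ter119+ and Kit+ cytoplasm of the other line's controls on the x axis and the log2 change with VavCre in Ter119+ cytoplasm on the y axis. In the left panel Mrps6, Mrpl12 and Mrpl19 lie far left and high and Mrpl53 right and low, and the slope is flatter in the right panel, drawn for the Rps19 line.

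In Kit+ cytoplasm VavCre Rpl5flox/+ libraries also held more mRNA of many members, by smaller steps. Of 78 members 29 were higher and 6 lower, where 20.8% of all genes were called higher and 16.4% lower. Their median log2 change was 0.18, against 0.03 for all genes. The 35 calls became 20 without control replicate 3 and 21 without VavCre replicate 2. The summed level was 79735 to 82482 normalized counts against 68529 to 73677 in the controls.

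Mrps16, a small-subunit protein at chr14:20391222-20393634, was at 1359.8, 1276 and 1272 normalized counts in VavCre Rpl5flox/+ Kit+ cytoplasm and at 835, 816 and 780.4 in its controls. The groups did not overlap, and the log2 change was 0.67 (SE 0.08, limma, adjusted p = 4.91e-05). Mrpl19 rose by 0.56, Mrpl42 by 0.49, Mrpl24 by 0.42 and Mrps33 by 0.42. Mrpl12 rose by 0.25, a call that was lost when the libraries were rescaled to each other (limma, adjusted p = 0.0923) and without control replicate 1, control replicate 3, VavCre replicate 1 or VavCre replicate 2 (0.0554 to 0.131). The 6 lower members were Mrpl3 and Mrpl14 (both -0.43), Mrpl16 (-0.28), Mrps36 (-0.28), Mrpl28 (-0.26) and Mrpl27 (-0.24), and the groups overlapped for Mrpl3. The drop in Mrps36 is that of a dehydrogenase subunit, not of a ribosomal protein.

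Erythroid markers were lower in VavCre Rpl5flox/+ Kit+ cytoplasm in 9 of 9, with a median log2 change of -1.64. Hepatocyte markers, which come from cells that keep both copies of Rpl5, were higher in 15 of 16, at 23917 to 44242 normalized counts against 6210 to 19690. Granulocyte and monocyte markers summed to 46788 to 86790 normalized counts against 22052 to 24078, and B-lymphoid markers to 282 to 372 against 1278 to 1689, both without overlap. The part of these cells in the members' change was not tested.

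With VavCre Rps19flox/+ the members of Kit+ cytoplasm moved in both directions, as the genes tested did as a whole. Of 78 members 19 were higher and 24 lower, where 27.6% of all genes were called higher and 26.1% lower. The median log2 change was -0.05, against 0.01 for all genes, and the summed level overlapped its controls at 69023 to 74206 against 68910 to 73337 normalized counts. Mrpl3 and Mrps27 rose most, and Mrpl33, Mrpl13, Mrps18c and Mrpl14 fell most.

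Mrpl3, a core large-subunit protein at chr9:105053268-105077466, and Mrps27, a mitochondria-specific small-subunit protein at chr13:99344767-99415562, were the members that rose by over 2-fold. Mrpl14 at chr17:45685722-45698495 and Mrpl53 were lower. The 80 bases before an annotated start of each are printed because these 4 genes carry the opposite changes. They are from RefSeq, GRCm38.p6, plus strand, at chr9:105053188-105053267, chr13:99344706-99344785, chr17:45686269-45686348 and chr6:83109028-83109107. Capitals mark CCGGAAG, the core of ETS factor sites such as those of GABPA, or its reverse complement.
Mrpl3: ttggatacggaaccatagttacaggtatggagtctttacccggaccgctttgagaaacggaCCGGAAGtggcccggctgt
Mrps27: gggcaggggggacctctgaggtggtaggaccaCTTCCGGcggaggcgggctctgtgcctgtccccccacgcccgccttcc
Mrpl14: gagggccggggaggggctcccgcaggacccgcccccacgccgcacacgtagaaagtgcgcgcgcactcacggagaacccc
Mrpl53: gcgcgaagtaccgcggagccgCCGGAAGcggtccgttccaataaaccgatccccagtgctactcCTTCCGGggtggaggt

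Mrpl3 was at 1364, 1251 and 1276 normalized counts in VavCre Rps19flox/+ Kit+ cytoplasm and at 495, 692 and 673 in its controls. Every VavCre library was above every control, and the log2 change was 1.06 (SE 0.16, limma, adjusted p = 0.000106). Mrps27 was at 844, 761 and 769.6 against 348, 441 and 369, with no overlap and a log2 change of 1.01 (SE 0.11, limma, adjusted p = 1.07e-05). Mrpl14 was at 535, 479 and 463 against 808, 689.7 and 719, a log2 change of -0.57 (limma, adjusted p = 0.000222). The stretch above carries the motif in Mrpl3 and Mrps27, which rose, and in Mrpl53, which fell by 0.54 on the log2 scale.

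Mrpl14 and Tmem63b share 622 annotated bases, and Tmem63b went the other way, from 70.5 to 262 normalized counts (log2 change 1.69, limma, adjusted p = 7.44e-06). Granulocyte and monocyte markers were lower in VavCre Rps19flox/+ Kit+ cytoplasm in 10 of 10, B-lymphoid markers in 8 of 8, and megakaryocyte and platelet markers in 8 of 8. Their part in the members' changes was not tested.

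The 3 mitochondrial relatives of bacterial S18 did not all move the same way with VavCre Rps19flox/+ in Kit+ cytoplasm, where Mrps18a and Mrps18b rose and Mrps18c fell. Mrps18b and Mrps18c encode proteins of the small subunit and Mrps18a a protein of the large subunit. Their genes lie at chr17:35910380-35916440, chr5:100798759-100804467 and chr17:46111004-46128908. The 80 bases before each start are shown because these related genes moved apart. They are from RefSeq, GRCm38.p6, at chr17:46110924-46111003 (plus strand), chr17:35916441-35916520 (minus strand) and chr5:100798679-100798758 (plus strand), and capitals mark CCGGAAG. Of the printed stretches only that of Mrps18a holds this motif. In the wider promoter windows counted at the end all 3 genes carry it, so its presence there does not separate them.
Mrps18a: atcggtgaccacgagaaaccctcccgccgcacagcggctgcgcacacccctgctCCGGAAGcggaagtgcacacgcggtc
Mrps18b: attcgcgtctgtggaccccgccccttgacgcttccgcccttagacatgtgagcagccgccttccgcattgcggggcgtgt
Mrps18c: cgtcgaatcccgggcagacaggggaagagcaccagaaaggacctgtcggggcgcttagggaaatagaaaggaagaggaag

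In VavCre Rps19flox/+ Kit+ cytoplasm Mrps18b was at 1553, 1473 and 1458 normalized counts against 978, 1087 and 1135 in the controls. Mrps18c was at 515, 551 and 520.2 against 867, 724 and 807. Neither gene's groups overlapped, and the log2 changes were 0.48 and -0.58 (limma, adjusted p = 0.000131 and 0.000201). Mrps18a rose by 0.31 (limma, adjusted p = 0.00663).

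The ratio of Mrps18b to Mrps18c, in normalized counts not divided by length, was 1.13 to 1.52 in the 6 control Kit+ libraries. It was 2.67 to 3.02 with VavCre Rps19flox/+ and 1.44 to 1.74 with VavCre Rpl5flox/+. In control Ter119+ cytoplasm the ratio spanned 0.266 to 0.574, as Mrps18b fell by 1.61 on the log2 scale from Kit+ to Ter119+ cells and Mrps18c changed by 0.15 (limma, adjusted p = 5.74e-08 and 0.138). Ratios of 1.20 to 1.41 were found in the libraries labelled VavCre Rpl5flox/+ Ter119+. VavCre Rps19flox/+ Ter119+ libraries had 0.758 to 1.05.

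In Ter119+ cytoplasm VavCre Rps19flox/+ changed few members. Of 78 members 10 were higher and 4 lower, where 12.5% of all genes were called higher and 13.3% lower. The median log2 change was 0.08, against -0.03 for all genes, and the summed level of 42379 to 48323 normalized counts overlapped the 40502 to 50270 of the controls. The 14 calls became 8 without control replicate 1, 8 without control replicate 2, 8 without VavCre replicate 2 and 5 without VavCre replicate 3.

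Mrpl19, a large-subunit protein at chr6:81957826-81965949, was at 362, 396 and 398 normalized counts in these libraries and at 175, 202 and 213 in the controls. The groups did not overlap, and the log2 change was 0.92 (SE 0.16, limma, adjusted p = 0.00134). Mrpl3 was at 683, 704 and 804 against 404, 455 and 516, a log2 change of 0.66 (limma, adjusted p = 0.00591). Mrps27 rose by 0.92 and Mrps6 by 0.89, calls that were lost without VavCre replicate 3 (limma, adjusted p = 0.0517 and 0.113). The Mrps6 call was also lost without control replicate 1, without control replicate 2 or without VavCre replicate 2 (limma, adjusted p = 0.103, 0.0625 and 0.054). The 4 lower members were Mrpl53 (-0.57), Mrpl51 (-0.52), Mrps18c (-0.42) and Mrpl14 (-0.40). Mrpl12 was at 860.0, 1031 and 1157 against 671, 649 and 1022, which overlap (log2 change 0.39, limma, adjusted p = 0.142). Kit was at 308 normalized counts against 41.8, and macrophage markers were lower in 8 of 10. Other marker lists also stood apart from the controls. Erythroid markers summed to 5493780 to 5922130 normalized counts against 9080900 to 9698560, and stem and progenitor markers to 819 to 1065 against 420 to 486. Granulocyte and monocyte markers summed to 1852 to 3050 against 5277 to 8952, and B-lymphoid markers to 8 to 23 against 112 to 243. The part of these cells in the members' changes was not tested.

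Across the 4 cytoplasm comparisons of VavCre with floxed libraries, which share no library, Mrpl19 was higher in all 4 and Mrpl14 lower in all 4. Each is 1.28% of the members, and of the 10541 genes tested in all 4 comparisons 2.9% were higher in all 4 and 1.9% lower. In 3 or more comparisons 14 members (17.9%) were higher and 2 (2.56%) lower, the latter being Mrpl14 and Mrpl53, against 9.57% and 7.16% of all these genes. In 22 members (28.2%) calls went in both directions, against 22.6% of all, and 5 (6.41%) were called in none, against 12.2%. The Mrpl14 call in VavCre Rps19flox/+ Ter119+ cytoplasm had an adjusted p of 0.0474 (limma) and was lost under 7 alternatives, with adjusted p from 0.0534 to 0.146. Mrpl19 shares 1273 annotated bases with Gcfc2, which was not called in 3 of the 4 comparisons and was lower with VavCre Rpl5flox/+ in Kit+ cytoplasm (log2 change -0.72, limma, adjusted p = 0.00485).

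**Figure D3:**
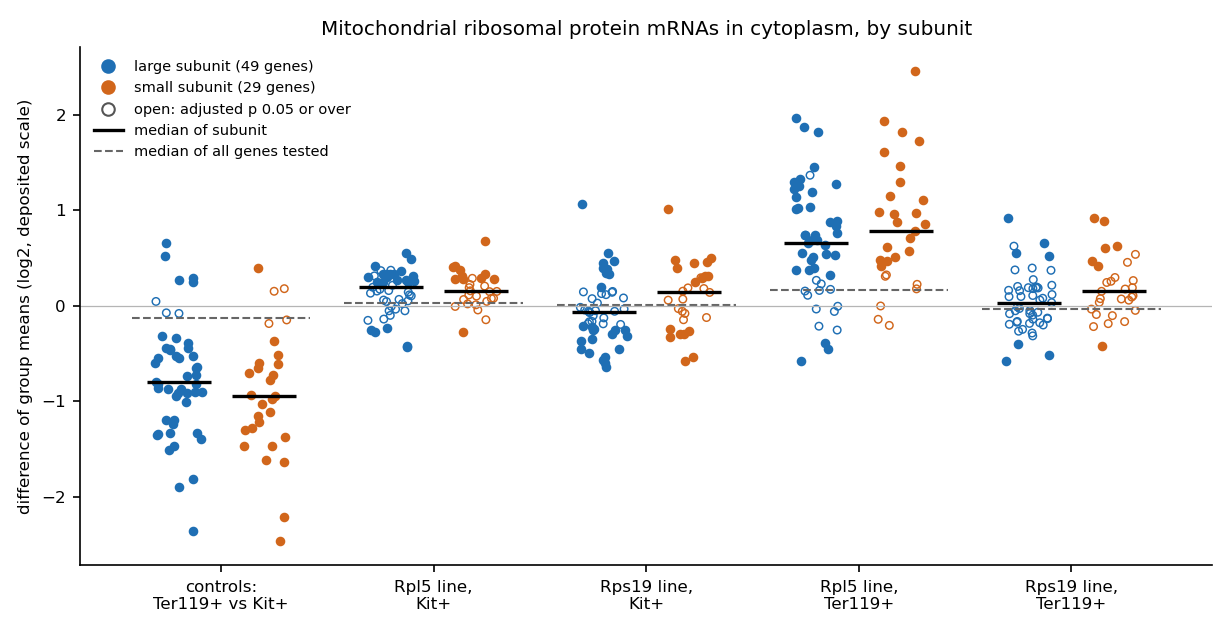
Log2 differences of group means on the deposited scale (y axis) for the 49 large-subunit and 29 small-subunit genes in 5 cytoplasm comparisons, each point 1 gene, filled where the adjusted p was under 0.05, with the subunit median as a black bar and the median of all genes tested as a dashed line. Nearly all points lie below 0 for control Ter119+ against Kit+ cells and above 0 for the Rpl5 line in Ter119+ cells. The Rps19 line in Kit+ cells spreads to both sides.

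The lines differed in how the members changed. In Kit+ cytoplasm 39 members had a change with VavCre Rpl5flox/+ that differed from the change with VavCre Rps19flox/+, 29 of them more positive with Rpl5 and 10 less, where 23.2% and 25% of all genes were called. Mrpl42, Mrps33 and Mrpl33 differed most upward, by 0.99, 0.96 and 0.95 on the log2 scale. Mrpl3 differed most downward, by -1.49 (SE 0.22, limma, adjusted p = 0.000153). Of the 29 members higher with Rpl5, 8 were lower with Rps19, among the 24 lower there, and 6 were higher in both, among 19. These are 10.3% and 7.69% of the members, against 6.39% and 5.65% of all genes. Mrpl3 and Mrpl16 (2.56%, against 5.08% of all genes) were lower with Rpl5 and higher with Rps19. The 39 members called to differ are 50% of the members, close to the 48.2% of all genes.

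In Ter119+ cytoplasm 45 members had a change that was more positive in the libraries labelled VavCre Rpl5flox/+ and 0 had one less positive, where 20.5% and 20.9% of all genes were called. At an unadjusted p under 0.05 (limma) 1 was less positive. Mrpl12 and Mrps6 differed most, by 1.57 each. Within the Rpl5 line, 49 members changed more positively in Ter119+ than in Kit+ cytoplasm and 4 less, where 25.8% and 22.6% of all genes were called. Mrps6 (2.06), Mrpl12 (1.71) and Mrps35 (1.66) led, and Mrpl57, Mrpl53, Mrpl49 and Mrpl51 were the 4.

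Within the Rps19 line 3 members changed more positively in Ter119+ than in Kit+ cytoplasm and 3 less, where 3.93% and 8.35% of all genes were called. They were Mrps35 (0.69), Mrps33 (0.61), Mrpl48 (0.51), Mrps11 (-0.55), Mrpl4 (-0.54) and Mrpl49 (-0.39). The 6 calls became 3 without any 1 of the Kit+ control replicates or Kit+ VavCre replicate 1, 2 without Ter119+ control replicate 2 or Ter119+ VavCre replicate 3, and 12 without Ter119+ control replicate 3.

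The subunits were also compared by their summed levels. The summed normalized count of the 29 Mrps genes over that of the 49 Mrpl genes was 0.536 to 0.549 in VavCre Rps19flox/+ Kit+ cytoplasm and 0.482 to 0.497 in the other 9 Kit+ cytoplasm libraries. No library of that group overlapped the others. This ratio was taken by symbol, so Mrps18a, Mrps30 and Mrps36 count as Mrps genes in it, and it was not redone by structure. In this group Mrps18a and Mrps30 were higher (0.31 and 0.25 on the log2 scale) and Mrps36 was not called. In Kit+ cytoplasm with VavCre Rps19flox/+ 10 Mrps genes were higher and 7 lower, while 9 Mrpl genes were higher and 17 lower. Of all genes tested there 27.6% were called higher and 26.1% lower. The median log2 change was 0.14 for Mrps and -0.07 for Mrpl genes, a difference of 0.21, or 0.17 with Mrps18a and Mrps30 placed in the large subunit and Mrps36 left out.

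In Ter119+ cytoplasm controls had ratios of 0.449 to 0.472. The libraries labelled VavCre Rpl5flox/+ had ratios of 0.482 to 0.503, and VavCre Rps19flox/+ libraries of 0.495 to 0.516. Both VavCre groups were above all 6 controls. With VavCre Rpl5flox/+ in Kit+ cytoplasm the ratio was 0.483 to 0.497, within the range of the controls. From control Kit+ to control Ter119+ cytoplasm Mrps genes fell slightly more than Mrpl genes, with median log2 changes of -0.95 and -0.80. The ratio is set mainly by the members with the most reads, and no test was made of it.

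**Figure D4:**
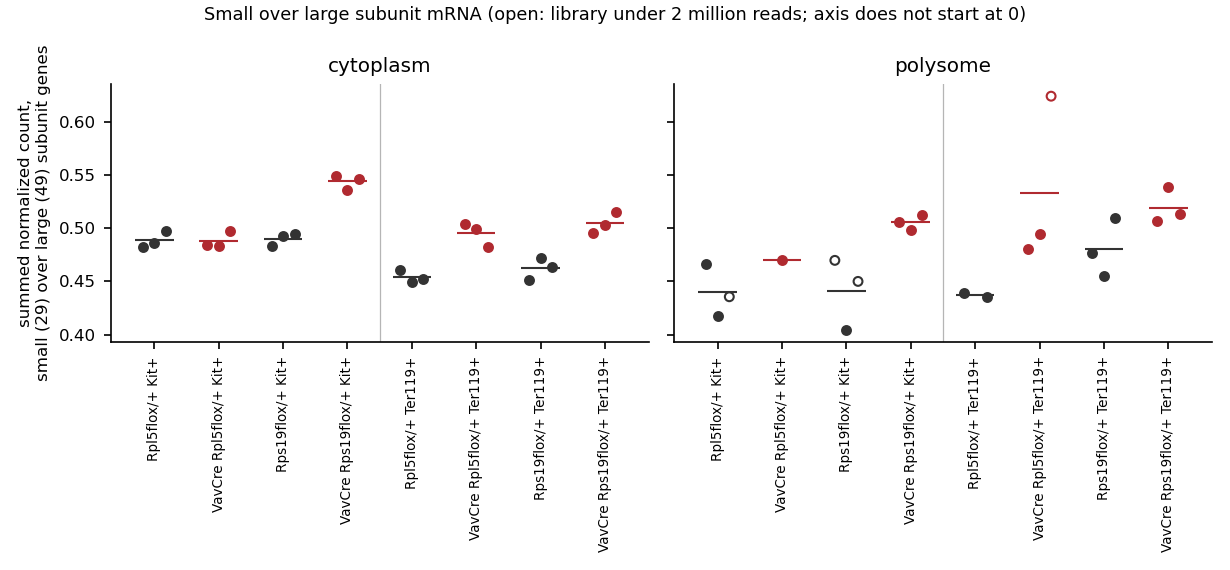
Ratio of the summed normalized counts of the 29 Mrps genes to those of the 49 Mrpl genes (y axis, not from 0) in every cytoplasm and polysome library, each point 1 library, open for libraries under 2 M reads, with the group mean as a bar. VavCre Rps19flox/+ Kit+ cytoplasm stands above all other Kit+ cytoplasm libraries, and the highest polysome point is a shallow library.

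Polysomes hold the mRNAs that several cytosolic ribosomes are translating, so the difference between polysome and cytoplasm libraries of the same pool tells how an mRNA is spread between them. In control Kit+ cells 21 of 78 members were higher in polysomes and 13 lower, where 7.69% of all genes were called higher and 37.4% lower. The median of the members was -0.03 and that of all genes -1.32. In control Ter119+ cells 20 were higher and 1 lower, where 4.81% of all genes were higher and 21.9% lower, with medians of 0.23 and -0.66. With the libraries rescaled to each other 29 members were higher and 0 lower in Ter119+ cells, the median of all genes moved to -0.34, and the share of all calls that were higher moved from 18.03% to 46.76%. In both cell types most called members were higher in polysomes, though in Kit+ cells only by 21 against 13. The level of no difference is set by size factors taken over all 45 libraries, so the numbers of higher and lower calls depend on it.

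Mrps16 had the largest difference in favour of polysomes in Kit+ cells. In Kit+ polysomes it was at 3726, 3639 and 2915 normalized counts in Rpl5flox/+ and at 3967, 3615 and 4354 in Rps19flox/+, against 780.4 to 881 in the cytoplasm of the same pools. The log2 difference was 2.13 (SE 0.15, limma, adjusted p = 9.08e-06), and 1.22 in Ter119+ cells (limma, adjusted p = 0.00659). Mrps25 (1.98), Mrpl17 (1.90), Mrpl52 (1.71) and Mrpl14 (1.69) followed in Kit+ cells. Mrpl12 was at 6958 to 10857 normalized counts in the 6 control Kit+ polysome libraries, a log2 difference of 1.35 (limma, adjusted p = 6.27e-05), and of 1.29 in Ter119+ cells.

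Mrpl3 was lower in polysomes of both cell types. In Kit+ polysomes it was at 129, 261 and 0 normalized counts in Rpl5flox/+ and at 0, 111 and 423 in Rps19flox/+, against 492 to 692 in cytoplasm (log2 difference -3.11, limma, adjusted p = 0.0192). Both Kit+ libraries at 0 held under 2 M reads. In control Ter119+ polysomes Mrpl3 was at 155 ± 139 normalized counts (SD, n = 5), a wide spread. Mrpl50, Mrps2, Mrps10 and Mrps22 were lower in Kit+ polysomes by 2.66 to 3.65 on the log2 scale, with zeros among their libraries, so that these sizes depend on how 0 reads is written on the deposited scale. By symbol the Mrpl genes had the higher median in Kit+ cells (0.15 against -0.31), and by structure the Mrps genes did (0.14 against -0.05).

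**Figure D5:**
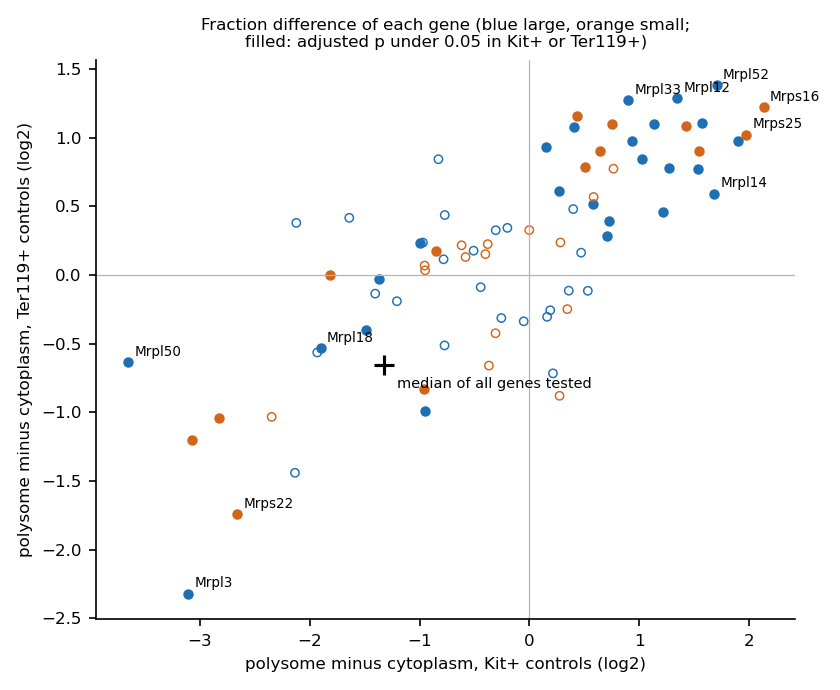
Log2 difference between polysome and cytoplasm of control pools, Kit+ cells on the x axis and Ter119+ cells on the y axis, each point 1 member (blue large, orange small subunit, filled where the adjusted p was under 0.05 in either cell type), with a cross at the median of all genes tested. Mrps16, Mrps25, Mrpl52 and Mrpl12 lie high on both axes, Mrpl3 low on both, and most members lie above and to the right of the cross.

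Between control Ter119+ and Kit+ polysomes 20 members were lower and 3 higher, where 7.26% of all genes were lower and 16% higher. Mrpl12 was at 9017 ± 1586 normalized counts in Kit+ polysomes (SD, n = 6) and at 1776 ± 829 in Ter119+ polysomes (SD, n = 5), a log2 change of -2.54 (SE 0.24, limma, adjusted p = 8.88e-07). The 3 higher members were Mrpl53 (2.77), Mrpl32 (1.73) and Mrps21 (1.16), which were also among the 6 higher in cytoplasm. The 23 calls became 14 without Rpl5flox/+ Ter119+ replicate 1 and 15 without replicate 2, all of them lower. The polysome difference itself was not called to differ between Ter119+ and Kit+ controls for any member by limma, with 16 members at an unadjusted p under 0.05 and 0.561% of all genes called. Without the pool of Rps19flox/+ Kit+ replicate 2 there was 1 call.

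In Kit+ polysomes VavCre Rps19flox/+ had 4 members higher and 8 lower than its controls, where 6.19% of all genes were higher and 3.68% lower. Mrps16 was at 1346, 1783 and 1804 normalized counts against 3967, 3615 and 4354, with no overlap and a log2 change of -1.28 (SE 0.21, limma, adjusted p = 0.00479). Mrpl24 (-1.90) and Mrps25 (-1.90) fell most. Mrpl24 was at 826, 956 and 961 normalized counts against 3365, 3207 and 3825. In the cytoplasm of these pools Mrps16 was at 888 to 1052 against 782 to 881.

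The 4 higher members were Mrps7 (1.40), Mrps24 (1.98), Mrpl18 (2.02) and Mrpl50, which was at 453, 494 and 523 against 0, 74.6 and 0, the zeros being in libraries under 2 M reads. The 12 calls became 5 without any 1 of the VavCre replicates and 26 without the libraries under 2 M reads. The median log2 change was 0.39 for the members and 1.11 for all genes, and the number of reads also differed, at 1.01 to 7.17 M reads in the controls and 10.8 to 37.6 M reads with VavCre. The part of depth in these changes was not tested beyond leaving out those libraries. The polysome to cytoplasm ratio of Kit+ cells changed with VavCre Rps19flox/+ for 5 members, 2 upward and 3 downward, where 3.07% and 2.18% of all genes were called. They were Mrpl50 (5.19), Mrps24 (1.79), Mrpl24 (-1.85), Mrps25 (-1.57) and Mrps16 (-1.46), all changes on the log2 scale. There were 0 calls without any 1 of the VavCre pools, 2 without control pool 1 or 3 and 13 without control pool 2.

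In Ter119+ polysomes 7 members were higher and 1 lower in the libraries labelled VavCre Rpl5flox/+, where 2.96% of all genes were higher and 10.3% lower. Mrps16 was at 5397, 3619 and 6029.8 normalized counts against 714 and 879 in the 2 control libraries, a log2 change of 2.61 (SE 0.47, limma, adjusted p = 0.00321). Mrpl12 was at 6923, 6077 and 5055 against 877 and 1280.4, a log2 change of 2.48 (SE 0.38, limma, adjusted p = 0.0011). Mrps15, Mrpl52, Mrps26, Mrpl2 and Mrpl17 were the others that rose. Mrpl4 was at 0, 512 and 0 against 963 and 1180.0. The 8 calls became 1 without control replicate 1, 2 without control replicate 2, 2 without replicate 1 of the labelled libraries, 17 without its replicate 2 and 15 without its replicate 3, which held 1.02 M reads.

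No member was called by limma in VavCre Rps19flox/+ Ter119+ polysomes, where 0.801% of all genes were called and 7 members had an unadjusted p under 0.05. The polysome to cytoplasm ratio of Ter119+ cells was not called for any member by limma with either line, where 0.0184% of all genes were called for the libraries labelled VavCre Rpl5flox/+ and 0.00918% for VavCre Rps19flox/+. At an unadjusted p under 0.05 there were 12 and 4 members. Without the labelled VavCre Rpl5flox/+ Ter119+ pool 2 the ratio was called for 6 members, all lower, and without Rps19flox/+ Ter119+ replicate 2 there was 1 call in polysomes of the Rps19 line. The single VavCre Rpl5flox/+ Kit+ polysome library allowed no test. It lay above all 3 controls for 21 members and below all 3 for 22, where 33.0% of all genes lay above and 16.05% below. Mrpl14 was at 519.7 normalized counts there against 2869.9, 3212 and 3074, and Mrps16 at 4214 against 3726, 3639 and 2915.

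The other genes of mitochondrial translation were read from lists. Of 5 mitochondrial ribosomal proteins under other names (Dap3, Ptcd3, Chchd1, Aurkaip1 and Gadd45gip1) 4 were lower in control Ter119+ than in Kit+ cytoplasm and 4 were higher in the libraries labelled VavCre Rpl5flox/+ Ter119+. Of 29 assembly factors 22 were lower and 2 higher in control Ter119+ than in Kit+ cytoplasm. Of 18 translation factors 14 were lower and 1 higher there, where 42.7% of all genes were lower and 35.8% higher. With VavCre Rps19flox/+ in Kit+ cytoplasm 13 of 29 assembly factors were higher, with a median log2 change of 0.27. There 13 of 17 mitochondrial aminoacyl-tRNA synthetases, which charge tRNAs with amino acids, were higher, with a median of 0.54. In that comparison 27.6% of all genes were higher, and the members themselves had 19 higher and 24 lower.

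Genes of the cytosolic ribosome moved with the members in some comparisons. In control Ter119+ against Kit+ cytoplasm 27 of 31 small-subunit and 37 of 46 large-subunit genes were lower, where 42.7% of all genes were. In the libraries labelled VavCre Rpl5flox/+ Ter119+ 29 and 43 were higher, where 35.3% of all genes were. With VavCre Rps19flox/+ in Kit+ cytoplasm 25 and 25 were lower, and 1 and 4 higher, where 26.1% of all genes were lower. The mRNAs made inside mitochondria did not share the members' place in polysomes, as 11 of 13 were lower in Kit+ and 12 of 13 in Ter119+ control polysomes, with median log2 differences of -3.49 and -3.19, where 37.4% and 21.9% of all genes were lower.

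The promoters were read from RefSeq windows of 250 bases before to 50 after a start (GRCm38.p6), which held 69 of the 78 members. CCGGAAG, searched on both strands, was in 26 of 69 (37.7%), against 19% of the 10587 genes of the table with a window and 9.93% of all 27025 genes with one. AAGATGGC, a core of YY1 sites, was in 17.4% against 5.03% and 3.19%. The consensus palindrome of NRF1 was in 4.35% against 2.19% and 1.07%, and CACGTG, the E-box of factors such as MYC, in 7.25% against 11.4% and 8.09%. The motifs can overlap each other and were counted separately. By subunit CCGGAAG was in 34.9% of Mrpl and 42.3% of Mrps windows. A match of letters is not a bound site.

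Many members start next to another gene. For 23 of 69 (33.3%) another gene started head to head within 500 bases, against 16.6% of the genes of the table. Of 19 such pairs with both genes in the table, both were called between control Ter119+ and Kit+ cytoplasm in 14, in the same direction in 12. In the libraries labelled VavCre Rpl5flox/+ Ter119+ both were called in 7 pairs, in the same direction in 4. With VavCre Rps19flox/+ in Kit+ cytoplasm both were called in 5 pairs, in the same direction in 2. Pairs without a member were not counted, so these counts have no background. In the labelled Ter119+ libraries Mrpl2 was higher (1.01) while its neighbour Klc4 was lower (-1.39). In the same libraries Mrpl49 was lower (-0.45) while Fau was higher (1.08). These pairs were chosen after their values were seen. In all, 18 members overlap another gene of the table by annotated span, and 6 annotated pseudogenes are named after members, so part of their reads cannot be assigned with certainty.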

How the data were processed

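RNA of cytoplasm and polysome fractions was sequenced as poly(A) libraries with paired-end reads of 100 bases, per the labels' protocols. The authors deposited 1 table of log2 values, a variance-stabilized transform of counts divided by size factors. Solving the transform for counts gave whole reads for 100% of values (relative tolerance 1e-05). The build was mm10, per the submitters' processing notes, while aligner, counter and strand setting are not given in the sources. Depth was 1.01 to 123 M reads a library, which limits the polysome values most.

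Groups were taken from the labels. Deposited log2 values of genes with a mean of at least 10 normalized counts were fitted with limma 3.58.1 (lmFit and eBayes with a trend, R 4.3.3). The genotypes of a cell type and fraction shared 1 estimate of the spread, and the pool was a block where fractions were compared. P-values were adjusted by Benjamini-Hochberg over all genes tested, and a gene was called at an adjusted p under 0.05, two-sided. The code was tested on simulated data. Figures and summaries used Python 3.11.15.

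The members and lists were chosen with earlier results of these data known. Members were named by rule: in each comparison the 10 with the smallest adjusted p, the 5 largest rises and 5 largest falls among called members with groups apart and a mean of 50 or more in the higher group, every called member where 5 or fewer were called, and a set list (the Mrps18 genes, Mrps30, Mrps36, Mrps12, Mrpl10, Mrpl11 and Mrpl12). Members named outside it, such as Mrpl3 with VavCre Rpl5flox/+ in Kit+ cells or Mrps27 in the libraries labelled VavCre Rpl5flox/+ Ter119+, were named after their values were seen.

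Alternatives were other filters, log2 of the normalized count plus 1, rescaled libraries, only the 2 groups compared, a replicate block, no block, leaving out each replicate or the libraries under 2 M reads, subunits by structure, and limma voom on the recovered reads. Same-numbered VavCre and control libraries deviated together (every correlation over 0.1) in cytoplasm of the Rpl5 line, with values of 0.244, 0.255 and 0.305 for Kit+ libraries and of 0.134, 0.273 and 0.153 for Ter119+ libraries. Same-numbered Kit+ and Ter119+ control cytoplasm libraries did so in the Rps19 line (0.273, 0.222 and 0.137) and not in the Rpl5 line (0.112, 0.106 and -0.064). In the other comparisons checked, not every pair was over 0.1.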

Additional observations from a re-analysis of the deposited data

Results flagged for a closer look

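The change of the members with VavCre differed between groups in the tests of the difference itself. In Kit+ cytoplasm 39 members (50%) differed between the lines, close to the 48.2% of all genes, and in Ter119+ cytoplasm 45 (57.7%), against 41.5% of all genes. Between Ter119+ and Kit+ cells 53 members (67.9%) differed in the Rpl5 line, against 48.4% of all genes, and 6 (7.69%) in the Rps19 line, below the 12.3% of all genes. The libraries labelled VavCre Rpl5flox/+ Ter119+, whose Rpl5 goes against the label, enter the counts of 45 and 53.

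In 10 members (12.8%, against 11.5% of all genes) the calls of the lines in Kit+ cytoplasm had opposite directions and the difference was called. The change with VavCre Rpl5flox/+ minus that with VavCre Rps19flox/+, on the log2 scale, was 0.57 for Mrpl11, 0.46 for Mrpl18, 0.58 for Mrpl35, 0.99 for Mrpl42 and 0.79 for Mrpl51. It was 0.55 for Mrps15, 0.64 for Mrps21 and 0.96 for Mrps33. For Mrpl3 it was -1.49 and for Mrpl16 -0.62.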

How the results depend on the processing

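Among the members named by rule, none that was called in a comparison turned direction under the alternatives run for it. Of the counts of called members under alternatives 236 stayed within 1.5 times the main count and 44 did not. In Kit+ polysomes of the Rps19 line the 12 calls became 7 with the replicate block and 26 without libraries under 2 M reads. In Ter119+ polysomes of the Rpl5 line 8 became 15 with the replicate block, 2 with only the 2 groups and 15 without those libraries. In Ter119+ polysomes of the Rps19 line 0 became 1 with voom, 1 with only the 2 groups and 2 without those libraries. For the ratio of fractions in Kit+ cells of the Rps19 line 5 became 8 with no filter, 0 with the replicate block and 3 without those libraries, and the difference between cell types in the Rps19 line went from 6 to 10 with voom. Leaving out 1 library gave 20 to 35 calls for the Rpl5 and 29 to 44 for the Rps19 line in Kit+ cytoplasm, 54 to 58 and 5 to 16 in Ter119+ cytoplasm, 5 to 17 for the Rps19 line in Kit+ polysomes, and 1 to 17 and 0 to 1 in Ter119+ polysomes. It gave 30 to 43 and 36 to 50 for the differences between lines, and 45 to 56 and 2 to 12 for those between cell types. For control Ter119+ against Kit+ cells it gave 71 to 73 in cytoplasm and 14 to 26 in polysomes. It gave 25 to 37 and 15 to 20 for the fractions in Kit+ and Ter119+ controls, and 0 to 1, 0 to 13, 0 to 6 and 0 to 0 for the changes in the ratio of fractions. With the replicate block the Rpl5 line had 34 calls in Kit+ and 60 in Ter119+ cytoplasm, and control Ter119+ against Kit+ cytoplasm had 71. Each was within 1.5 times the count without the block. Rescaling moved the median of all genes from 0.51 to 0.41 in Ter119+ polysomes of the Rps19 line. The cause of these changes was not tested. Depth limits the polysome results, where up to 23 members had no reads in a library.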
